A study of Mus musculus with 9 samples.

Results

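The genes described here are 10 markers that white blood cells of most kinds share: Lcp1, Coro1a, Rac2, Laptm5, Ptprc, Spi1, Cd37, Cd53, Cd52 and Tyrobp. They were taken by symbol from a deposited table of 30579 genes, and all 10 had a row. The libraries were made from marrow cells sorted as mesenchymal stromal cells, and which cells the RNA of these genes came from was not tested. The members were chosen with earlier results on the same 9 libraries in view. The levels in all 3 groups therefore chose them, and differences between the groups are given for them as a description, with intervals and counts but no p-values.

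RNA was sequenced from sorted stromal cells of the long bones of mice, in 3 groups of 3 libraries. One group is labelled aged Thbs1 knockout, from mice of 18 months. Aged controls were also 18 months old, and young controls were 3 months old. All mice had been injected with an antibody to VE-cadherin, which marks vessel lining, before death. The type of the knockout allele, the strain, the sex, the gates of the sort and the number of mice behind each library are not stated in the labels. P-values thus measure only the spread between these libraries. Thbs1, the targeted gene, was at 24.3, 44.6 and 37.1 FPKM in the libraries labelled knockout, at 35.6, 41.9 and 36.9 FPKM in aged controls and at 75.0, 73.1 and 58.0 FPKM in young controls. FPKM counts fragments relative to transcript length and sequencing depth. The libraries labelled knockout thus overlapped the aged controls in Thbs1 RNA, and they are named by their label throughout.

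Stromal markers were high in every library. The summed level of 9 stromal markers was 6591 to 9068 FPKM in the libraries labelled knockout, 4281 to 6230 FPKM in aged controls and 8507 to 9589 FPKM in young controls. Library depth was estimated at 17.65 to 27.6 M reads (M being mega). One library differed from the rest, replicate 2 of those labelled knockout: its correlations with the other 8 ranged over 0.738 to 0.811, and it had reads in 13503 genes where the others had them in 16557 to 18382. The estimated share of reads from immunoglobulin genes was 0.162%, 19.2% and 2.36% for the 3 libraries labelled knockout, 21.6%, 4.27% and 31.9% for aged controls and 0.00382%, 0.0103% and 0.170% for young controls.

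White blood cells share a set of proteins that serve movement, surface signalling and gene control. L-plastin, coronin 1A and Rac2 shape the actin skeleton with which these cells crawl and engulf. CD45, tetraspanins and adaptor proteins tune receptors at the membrane, and the transcription factor PU.1 switches on many myeloid and B cell genes. Stromal cells of the marrow use related proteins from other genes for the same tasks. CD45, the product of Ptprc, is the usual surface mark by which blood cells are kept out of a stromal sort.

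All 10 genes were higher in every aged control than in every young control. A gap of this kind, upward, was seen in 7.02% of the 11988 genes tested. In the libraries labelled knockout 9 of the 10 were lower than in every aged control, where 6.54% of tested genes lay below without overlap. The exception was Cd52. Between the libraries labelled knockout and young controls the ranges of all 10 genes overlapped, where 4.08% of tested genes lay above and 13.4% below without overlap. In bulk samples such as these, the number of blood cells and the RNA of each cell, blood or stromal, cannot be told apart.

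Of the 10 members 9 had at least 1 FPKM in at least 3 libraries and entered the fit, and Ptprc did not. The filter alone favoured a difference, since only 5 members would have passed it without the aged controls. In limma 8 of the 9 passed an adjusted p under 0.05 as higher in aged controls, against 2.57% of all tested genes, and 7 of 9 passed as lower in the libraries labelled knockout, against 1.96%. None was higher there by either measure, where 1.52% of tested genes passed as higher and 16.6% lay above without overlap. The members were picked on these contrasts, so nothing is read from either count. The median log2 fold change of the 9 was 4.97 in aged against young controls and −4.00 in libraries labelled knockout against aged controls, and the medians of all tested genes were −0.28 and 0.07. These comparisons share the aged controls. Against young controls the libraries labelled knockout had a median of 0.60 (−0.16 for all genes). None of the 9 passed there in limma and 1, Cd52, had an unadjusted p under 0.05, where 0.00834% of tested genes passed as higher and 0.0167% as lower.

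The counts depended on single libraries. In aged against young controls the count of 8 dropped to 0 when the first aged control was left out and to 2 when the second was. It dropped to 1 when any single young control was left out. In libraries labelled knockout against aged controls the count of 7 became 0 without aged control replicate 1 or 2. It became 2 without replicate 1 or 3 of the libraries labelled knockout, and 2, 3 and 2 without young control replicates 1, 2 and 3. Without replicate 2 of the libraries labelled knockout, the library that stood apart, it was 8.

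**Figure D1:**
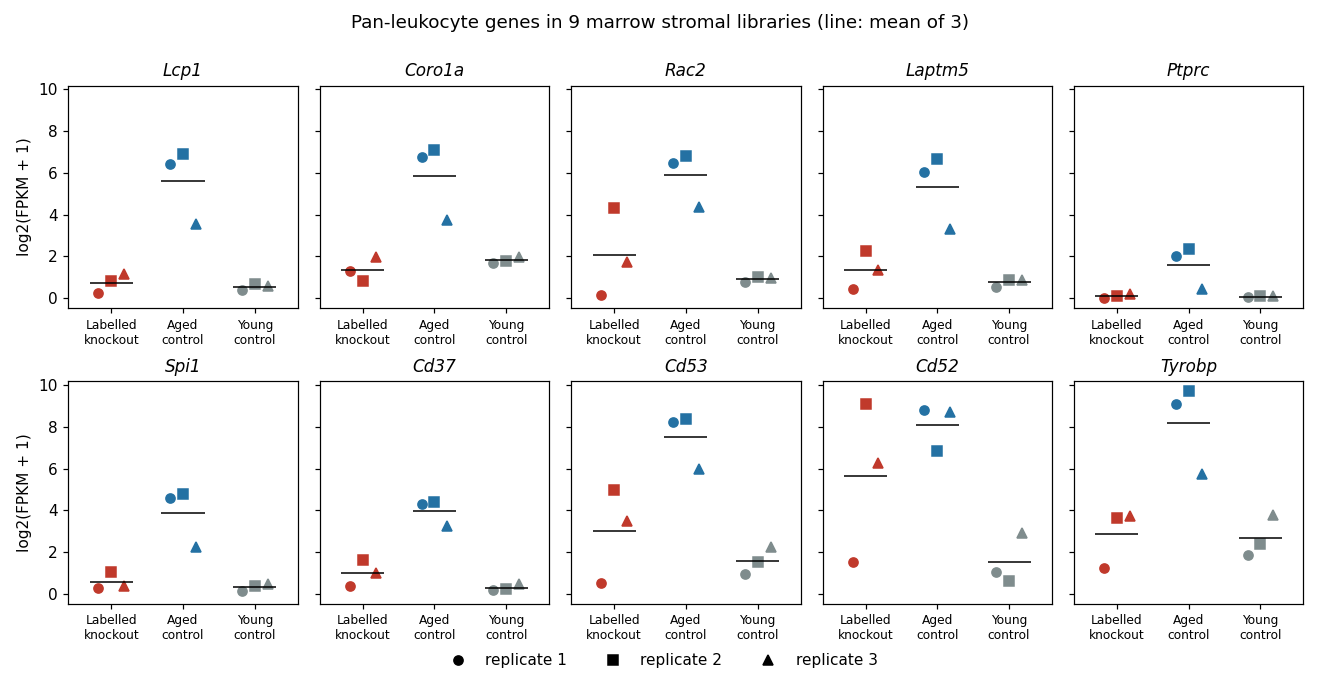
Each panel shows 1 gene as log2(FPKM + 1) on the vertical axis for the 3 libraries of each group, with the group mean of these log values as a line and the replicate number as the symbol. Aged control replicates 1 and 2 are the highest libraries in every panel but that of Cd52, where replicate 2 of the libraries labelled knockout is highest at 545 FPKM.

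Among the regulators of the actin skeleton, Lcp1 encodes L-plastin, which bundles actin filaments in blood cells (GRCm38 chromosome 14, 75131101 to 75230842, forward strand). It was at 0.17, 0.74 and 1.21 FPKM in the libraries labelled knockout, at 83.9, 117 and 10.6 FPKM in aged controls and at 0.28, 0.57 and 0.46 FPKM in young controls. The aged controls stood clear of both other groups, and their replicate 3 was well below the other 2 libraries. The mean was 161 times higher in aged than in young controls (70.5 ± 54.4 against 0.437 ± 0.146 FPKM, SD, n = 3 each), and the libraries labelled knockout, at 0.707 ± 0.521 FPKM, held 1.003% of the aged control mean. The log2 fold change was 5.09 (95% interval 3.44 to 6.74) with age and −4.88 (−6.54 to −3.23) in libraries labelled knockout against aged controls.

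Coro1a encodes coronin 1A, which binds filamentous actin and the Arp2/3 complex (chromosome 7, 126699773 to 126707787, reverse strand). It was at 1.47, 0.75 and 2.84 FPKM in the libraries labelled knockout, at 106, 137 and 12.2 FPKM in aged controls and at 2.16, 2.45 and 2.90 FPKM in young controls. The libraries labelled knockout averaged 1.69 ± 1.06 FPKM and the young controls 2.503 ± 0.373 FPKM, and these groups overlapped. The log2 fold change was 4.06 (2.35 to 5.77) with age and −4.51 (−6.22 to −2.80) in libraries labelled knockout against aged controls.

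Rac2, a small GTPase of blood cells and a part of the phagocyte oxidase, behaved differently in one library (chromosome 15, 78559167 to 78572783, reverse strand). It was at 0.10, 18.9 and 2.28 FPKM in the libraries labelled knockout, at 87.5, 112 and 19.3 FPKM in aged controls and at 0.69, 1.02 and 0.94 FPKM in young controls. Replicate 2 of the libraries labelled knockout came to just under aged control replicate 3, and the lowest aged control was 1.03 times the highest library labelled knockout. The log2 fold change was 4.97 (2.80 to 7.14) with age and −3.82 (−5.99 to −1.65) in libraries labelled knockout against aged controls, and the second of these did not pass.

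Each of these 3 genes has relatives that many other cells use, and the highest relative in these libraries was Pls3 for Lcp1, Coro1b for Coro1a and Rac1 for Rac2. Pls3, which encodes T-plastin, was at 23.6, 6.04 and 27.7 FPKM in the libraries labelled knockout, at 13.5, 16.4 and 14.2 FPKM in aged controls and at 24.6, 25.2 and 17.7 FPKM in young controls. Lcp1 stood at 6.23 and 7.12 times Pls3 in aged control replicates 1 and 2, at 0.744 times in replicate 3, and at 0.0114 to 0.0260 times in young controls. Rac2 exceeded Rac1 in the same pair of aged controls, at 1.17 and 1.20 times, and was 0.00666 to 0.0101 times Rac1 in young controls. Coro1a was 2.51, 2.58 and 0.424 times Coro1b in aged controls. Coro1b was listed at 0.02 FPKM in replicate 2 of the libraries labelled knockout, against 28.8 to 53.3 FPKM in the other 8 libraries.

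Of 11 genes related to these 3 regulators 9 were tested. Coro2a, another coronin, was at 0.02, 0.94 and 0.16 FPKM in the libraries labelled knockout, at 4.14, 3.84 and 2.22 FPKM in aged controls and at 0.02, 0.10 and 0.20 FPKM in young controls. It entered the fit through the aged controls alone, so its test is not given. Rac3 fell with age (log2 fold change −1.38, SE 0.27, limma adjusted p = 0.0293), where 1.47% of all tested genes passed as lower. Pls3, Coro1b and Rac1 passed in neither comparison, with log2 fold changes of −0.57, −0.03 and −0.50 with age. The median over the 9 tested relatives was −0.03 with age, against −0.28 for all tested genes.

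**Figure D2:**
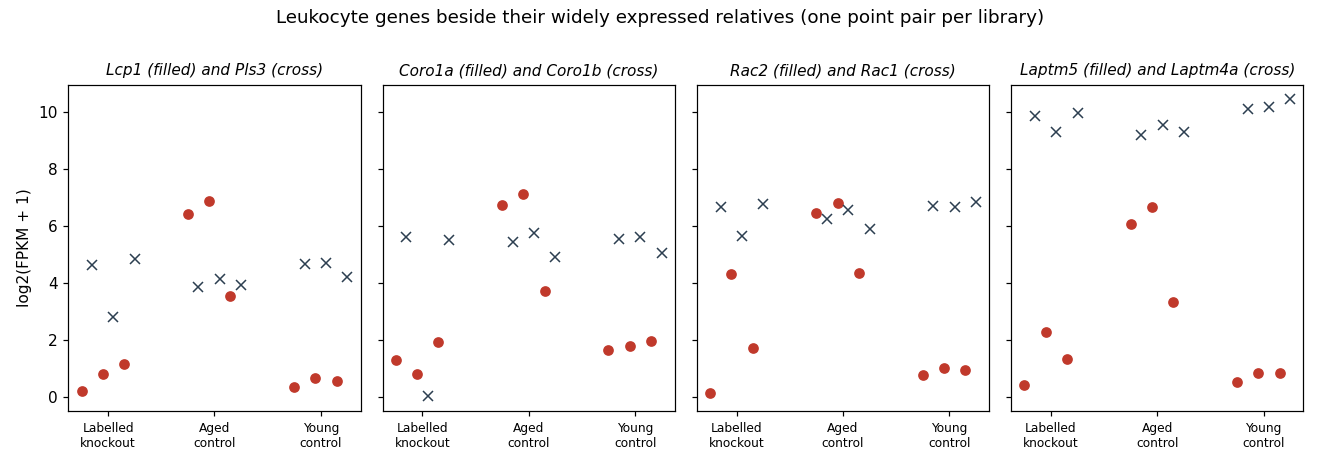
Each panel plots log2(FPKM + 1) of a leukocyte gene (filled points) and of its most abundant relative (crosses) in the 3 libraries of each group. Lcp1, Coro1a and Rac2 lie above their relatives in aged control replicates 1 and 2, Coro1a also where Coro1b is listed at 0.02 FPKM, and Laptm5 stays below Laptm4a in all 9 libraries.

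Among signalling proteins, Tyrobp encodes DAP12, an adaptor whose ITAM motif carries signals from activating receptors of myeloid and natural killer cells (chromosome 7, 30413760 to 30417585, forward strand). It had the highest level of the 10 in aged control replicates 1 and 2. Tyrobp was at 1.32, 11.3 and 12.3 FPKM in the libraries labelled knockout, at 554, 834 and 52.0 FPKM in aged controls and at 2.6, 4.22 and 12.5 FPKM in young controls. Replicates 1 and 2 of the aged controls averaged 13.3 times replicate 3, the widest such gap of the 10 genes. The log2 fold change was 5.52 (3.14 to 7.91) with age and −5.33 (−7.71 to −2.94) in libraries labelled knockout against aged controls.

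Ptprc, which encodes the phosphatase CD45, had the lowest FPKM of the 10 in all 9 libraries (chromosome 1, 138062861 to 138175708, reverse strand). It was at 0.00, 0.08 and 0.15 FPKM in the libraries labelled knockout, at 2.99, 4.14 and 0.36 FPKM in aged controls and at 0.02, 0.05 and 0.06 FPKM in young controls. The annotated exons of Ptprc join to 18313 bases, against 667 bases for Tyrobp, and FPKM divides by length. If that length was used, its values stand for about 0, 26 and 59 reads in the libraries labelled knockout, 1418, 2093 and 138 reads in aged controls and 7, 16 and 21 reads in young controls. The 0 in replicate 1 of the libraries labelled knockout allows up to 0.00629 FPKM, a limit of 3 reads that covers counting error only. Without the filter its log2 fold change was 1.54 (0.55 to 2.52) with age and −1.50 (−2.48 to −0.51) in libraries labelled knockout against aged controls, on a scale where the added 1 flattens low values.

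Ptpra, the most abundant of the related receptor phosphatases, was at 74.1, 37.2 and 58.1 FPKM in the libraries labelled knockout, at 49.6, 60.6 and 44.3 FPKM in aged controls and at 69.9, 74.2 and 51.1 FPKM in young controls. Ptprc reached at most 0.0683 times Ptpra, in aged control replicate 2.

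Cd53 and Cd37 encode tetraspanins, membrane proteins that gather receptors and integrins into clusters. Cd53 (chromosome 3, 106759921 to 106790149, reverse strand) was at 0.44, 30.6 and 10.1 FPKM in the libraries labelled knockout, at 298, 329 and 62.3 FPKM in aged controls and at 0.94, 1.88 and 3.78 FPKM in young controls. Cd37 (chromosome 7, 45233632 to 45239115, reverse strand) was at 0.30, 2.04 and 0.96 FPKM in the libraries labelled knockout, at 18.6, 20.4 and 8.46 FPKM in aged controls and at 0.13, 0.16 and 0.39 FPKM in young controls. Cd37 was the steadiest of the 10 across aged controls among those highest in replicates 1 and 2, which averaged 2.31 times replicate 3. Its interval was also the narrowest of the tested members, with a log2 fold change of 3.70 (2.82 to 4.57) with age and −3.00 (−3.87 to −2.13) in libraries labelled knockout against aged controls. Those of Cd53 were 5.94 (3.60 to 8.29) and −4.53 (−6.88 to −2.19).

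Cd9, the most abundant of 6 other tetraspanins examined, was at 284, 213 and 399 FPKM in the libraries labelled knockout, at 260, 423 and 140 FPKM in aged controls and at 225, 290 and 379 FPKM in young controls. Cd53 exceeded Cd9 in aged control replicate 1 only, at 1.14 times.

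Laptm5 encodes a lysosomal membrane protein that lowers surface receptors in lymphocytes (chromosome 4, 130913125 to 130936141, forward strand). It was at 0.35, 3.81 and 1.51 FPKM in the libraries labelled knockout, at 65.3, 99.7 and 8.95 FPKM in aged controls and at 0.44, 0.79 and 0.80 FPKM in young controls. The profile of Laptm5 over the 9 libraries was the closest of the 10 to the mean of the others, with a root mean square difference of 0.37 on the log2(FPKM + 1) scale. Its log2 fold change was 4.60 (2.84 to 6.36) with age and −4.00 (−5.76 to −2.23) in libraries labelled knockout against aged controls. Laptm4b, a relative, fell with age (log2 fold change −0.97, SE 0.20, limma adjusted p = 0.0346), and Laptm4a lay at −0.90 (SE 0.27, limma adjusted p = 0.101). Of 15 relatives of the membrane proteins Laptm4b was the only one to pass with age, and 9 had an unadjusted p under 0.05. Over all tested genes 1.47% passed as lower with age, and 37.4% lay lower without overlap. The median over the 15 was −0.69, against −0.28 for all tested genes.

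Spi1 encodes PU.1, an ETS family transcription factor that is required for myeloid and B cell development (chromosome 2, 91082390 to 91115756, forward strand). It was at 0.21, 1.08 and 0.31 FPKM in the libraries labelled knockout, at 23.0, 26.4 and 3.76 FPKM in aged controls and at 0.11, 0.29 and 0.38 FPKM in young controls. The aged controls again lay apart, with replicate 3 lowest among them. The log2 fold change was 3.54 (2.22 to 4.87) with age and −3.30 (−4.62 to −1.97) in libraries labelled knockout against aged controls. The close relatives Spib and Spic stayed under 1 FPKM in every library, and Fli1, an ETS factor of blood and vessel cells, rose with age (20.4 ± 7.73 against 6.03 ± 0.645 FPKM, limma adjusted p = 0.0468).

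Cd52, which encodes a small lipid-anchored surface glycoprotein of lymphocytes and some myeloid cells, did not follow the others (chromosome 4, 134082448 to 134095082, reverse strand). It was at 1.90, 545 and 76.5 FPKM in the libraries labelled knockout, at 443, 113 and 417 FPKM in aged controls and at 1.03, 0.52 and 6.45 FPKM in young controls. Replicate 2 of the libraries labelled knockout was the highest of all 9, and aged control replicate 2, the highest library for the other 9 members, was the lowest aged control for Cd52. The libraries labelled knockout averaged 208 ± 294 FPKM and aged controls 324 ± 184 FPKM, so these groups overlapped. The log2 fold change was 6.60 (3.03 to 10.18) with age and −2.47 (−6.05 to 1.10) in libraries labelled knockout against aged controls, and neither passed in limma. Against young controls the libraries labelled knockout lay at 4.13 (0.55 to 7.70).

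Cd52 had a root mean square difference of 2.38 from the mean profile of the other members, against 0.37 to 1.55 for the rest. It made up 30.4%, 88.7% and 70.7% of the summed FPKM of the 10 genes in the libraries labelled knockout, 26.3%, 6.28% and 70.1% in aged controls and 12.3%, 4.35% and 22.5% in young controls. Without Cd52 the sum was 4.36, 69.2 and 31.7 FPKM in the libraries labelled knockout, 1239, 1679 and 178 FPKM in aged controls and 7.37, 11.4 and 22.2 FPKM in young controls. Replicate 2 of the libraries labelled knockout thus held 69.2 FPKM of the other 9 genes, most of it in Cd53, Rac2 and Tyrobp.

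**Figure D3:**
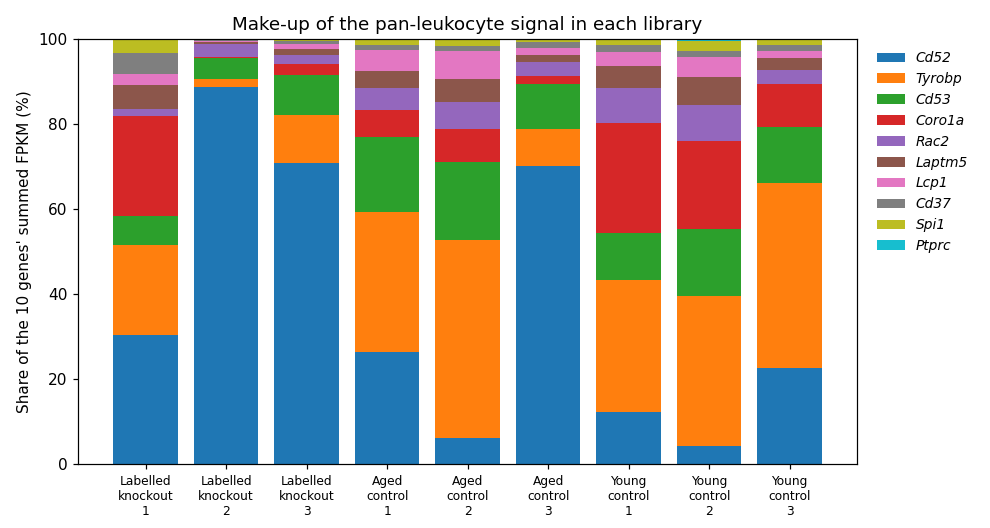
Stacked bars give each gene's share, in percent, of the summed FPKM of the 10 genes in every library. Cd52 takes 88.7% in replicate 2 of the libraries labelled knockout and 70.1% in aged control replicate 3, and Tyrobp takes 46.5% in aged control replicate 2.

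The order of the libraries by Cd52 was close to their order by Igkc, the kappa light chain constant gene of B lineage cells. Igkc was at 1058, 235332 and 19821 FPKM in the libraries labelled knockout, at 173227, 32970 and 210878 FPKM in aged controls and at 34.8, 81.6 and 1477 FPKM in young controls. Ranked from high to low, places 1, 4, 5, 6 and 7 were held by the same libraries for both genes, and neighbours exchanged places 2 with 3 and 8 with 9. Lcp1 was ordered otherwise, with aged control replicate 2 first and replicate 2 of the libraries labelled knockout in place 5. Of 12 plasma cell markers 6 rose with age in limma, where 2.57% of all tested genes did. Only 4 of the 12 would have passed the filter without the aged controls, and of the 6 Jchain alone is among them. The summed list was 342.5, 1475 and 571 FPKM in the libraries labelled knockout, 2090, 730.2 and 2255 FPKM in aged controls and 267.9 to 329.9 FPKM in young controls. The part of B lineage cells in the Cd52 level was not tested.

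The 10 members overlap few other genes in GENCODE M21. Exons of Cd52 share 172 bases with Crybg2 on the opposite strand, and Crybg2 was at 0.12 FPKM at most. Coro1a shares 26 bases with Bola2, and Cd37 shares 13 with Tead2. Exons of Lcp1 share 311 and 219 bases with the antisense genes Gm15628 and Gm15629, so reads in those stretches cannot be assigned.

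RefSeq promoter windows (GRCm38.p6) were at hand for 6 members, Lcp1, Coro1a, Laptm5, Ptprc, Cd37 and Cd53. Since the members moved together, the 250 bases before the first listed start were searched on both strands for GGAAGT, the core bound by ETS factors such as PU.1, and for GAGGAA, the PU box core, 2 motifs that can overlap each other. GGAAGT was present in 4 of the 6 and in 19.99% of 27025 promoters of the same length, and GAGGAA in 4 of 6 and in 23.1% of all. The same search covered 2 further short sequences, 1 made only of guanine and cytosine and 1 only of thymine and adenine. They were present in 3 and 2 of the 6 members, and in 32.94% and 12.97% of all promoters. Nothing particular to ETS factors is thus read from the counts. In Laptm5, Cd37 and Lcp1, 191, 165 and 31 of the 250 bases lie in annotated exons. Laptm5 and Cd37 are among the 4 members with each motif. The windows of Ptprc, Cd53 and Coro1a are printed. They were picked because at most 1 of their bases lies in an annotated exon and they show both motifs, 1 motif and none. All run 5′ to 3′ on the gene's strand, the reverse strand, and capitals mark either motif or its reverse complement. They lie at chr1:138175306-138175555, chr3:106790150-106790399 and chr7:126704817-126705066. The Ptprc and Coro1a windows fall inside the spans that GENCODE gives these genes, before the start that RefSeq uses. A match is a run of letters, not a shown binding site.
Ptprc: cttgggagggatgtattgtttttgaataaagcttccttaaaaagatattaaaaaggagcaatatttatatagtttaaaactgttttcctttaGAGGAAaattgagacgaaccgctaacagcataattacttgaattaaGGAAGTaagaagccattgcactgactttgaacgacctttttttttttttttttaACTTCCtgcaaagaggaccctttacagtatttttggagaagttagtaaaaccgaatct
Cd53: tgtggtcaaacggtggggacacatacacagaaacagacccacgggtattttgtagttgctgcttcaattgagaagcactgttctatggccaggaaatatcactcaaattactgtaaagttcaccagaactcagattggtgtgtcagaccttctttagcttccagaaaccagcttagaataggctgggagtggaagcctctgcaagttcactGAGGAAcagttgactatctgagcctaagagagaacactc
Coro1a: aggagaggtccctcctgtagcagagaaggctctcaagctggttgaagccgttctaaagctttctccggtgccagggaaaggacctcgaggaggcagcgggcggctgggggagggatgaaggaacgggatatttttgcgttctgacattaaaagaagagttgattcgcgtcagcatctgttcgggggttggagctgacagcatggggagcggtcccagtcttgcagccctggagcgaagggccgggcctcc

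The Ptprc window held GGAAGT 112 to 107 bases before the start, its reverse complement 58 to 53 bases before it and GAGGAA 158 to 153 bases before it. The Cd53 window held GAGGAA 39 to 34 bases before the start. Among 28 other leukocyte genes with a window, 11 held GGAAGT and 6 held GAGGAA.

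Further genes of white blood cells were set beside the members. Of a list of 40 further leukocyte genes, 37 were tested, 29 rose with age in limma and none fell, where 2.57% of all tested genes rose. In libraries labelled knockout against aged controls 22 of 37 were lower and none higher, against 1.96% lower over all genes. Only 9 of the 37 would have passed the filter without the aged controls. Of these 9, Fermt3 and Evi2a alone passed with age, and Fermt3 alone passed in libraries labelled knockout against aged controls. The other passing genes entered the fit only through the aged controls. The filter thus favoured their difference, and nothing is read from either count. The medians of the list were 3.09 and −2.56 on the log2 scale, and −0.28 and 0.07 for all genes. Fermt3 (kindlin-3), which activates integrins in blood cells, averaged 2.88 ± 1.14 FPKM in libraries labelled knockout, 39.4 ± 14.8 FPKM in aged controls and 2.07 ± 0.172 FPKM in young controls (limma adjusted p = 0.00307 and 0.00249). Vav1, an exchange factor for Rac proteins, averaged 0.74 ± 0.595, 11.3 ± 4.13 and 0.137 ± 0.0929 FPKM in the same groups. It entered the fit through the aged controls alone, so its test is not given. Itgal, the alpha chain of the leukocyte integrin LFA-1, averaged 3.86 ± 4.01, 34.2 ± 8.27 and 0.343 ± 0.175 FPKM. Itgal too entered the fit only through the aged controls, and its test is not given. Of 9 libraries, the 3 aged controls were the highest for each of these 3 genes. When the aged controls were left out one at a time the count of 29 was 1, 10 and 16, and for the young controls it was 4, 5 and 3. The count of 22 was 1, 2 and 12 on leaving out each aged control, and 6, 7 and 6 on leaving out each young control. It was 6, 31 and 4 on leaving out each library labelled knockout.

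Partners of the members were counted in the same way. Of 18 partners and targets of PU.1, 12 were tested and 4 passed as higher with age, Csf2rb, Fcgr3, Irf4 and Btk, where 2.57% of all tested genes did. Only 6 of the 12 would have passed the filter without the aged controls, and none of these 4 is among them, so the filter favoured their difference. Csf2rb, the shared beta chain of the receptors for IL-3, IL-5 and GM-CSF, was at 0.05, 3.25 and 1.04 FPKM in the libraries labelled knockout, at 76.6, 109 and 12.2 FPKM in aged controls and at 0.32, 0.46 and 0.60 FPKM in young controls. Among the aged controls it was ordered like Tyrobp, with replicate 3 far below the others. Irf4, a transcription factor of plasma cells, was ordered otherwise, at 0.46, 7.88 and 2.44 FPKM in the libraries labelled knockout, at 22.2, 3.83 and 27.3 FPKM in aged controls and at 0.14 FPKM at most in young controls. Csf3r, Cebpe and Ciita stayed under 1 FPKM in all 9 libraries, and Csf1r, the receptor for macrophage growth factor, was at 0.66 to 3.53 FPKM.

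Among subunits of the phagocyte NADPH oxidase, which Rac2 activates, the cytosolic Ncf1 and Ncf4 passed as higher with age, and Ncf4 entered the fit only through the aged controls. Ncf1 was at 0.74, 0.72 and 3.64 FPKM in the libraries labelled knockout, at 68.3, 101 and 6.61 FPKM in aged controls and at 0.88, 1.85 and 2.06 FPKM in young controls. The membrane subunits Cybb and Cyba did not pass (limma adjusted p = 0.617 and 0.133 with age). Among 14 genes of ITAM signalling, 5 were tested and Syk, Plcg2, Blnk and Lat2 passed as higher with age, where 2.57% of all tested genes did. Only 2 of the 5 would have passed the filter without the aged controls, and of the 4 named Plcg2 alone is among them. Trem1, Trem2, Trem3, Clec5a, Siglech and Klrk1, which encode receptors that pair with DAP12, were each under 1 FPKM in all 9 libraries. Cd300lb, which encodes another such receptor, was at 0.01, 0.08 and 0.62 FPKM in the libraries labelled knockout, at 12.97, 10.76 and 0.53 FPKM in aged controls and at 0.00, 0.08 and 0.04 FPKM in young controls. It was high in aged control replicates 1 and 2, as Tyrobp was, and was not tested. Of 10 Src family kinases and their regulators, on which CD45 acts, 5 were tested, none passed in limma with age, and 1 had an unadjusted p under 0.05.

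Markers of single blood lineages were set beside the members, and those of basophils, rare granulocytes that carry the IgE receptor, are given first. Of 9 basophil and eosinophil markers 7 were tested, all 7 rose with age and 6 were lower in libraries labelled knockout than in aged controls. Over all tested genes 2.57% rose with age and 1.96% were lower in the libraries labelled knockout. Of the 7, 5 would have passed the filter without the aged controls, and Ms4a2 and Ccr3 would not. Mcpt8, a basophil protease, was at 0.15, 14.0 and 6.71 FPKM in the libraries labelled knockout, at 1021, 1376 and 75.6 FPKM in aged controls and at 2.51, 2.71 and 10.1 FPKM in young controls (limma adjusted p = 0.0274 and 0.025). Fcer1a, the IgE-binding chain of that receptor, was at 0.73, 0.17 and 4.01 FPKM in the libraries labelled knockout, at 442, 486 and 28.7 FPKM in aged controls and at 0.97, 1.24 and 1.89 FPKM in young controls (limma adjusted p = 0.019 and 0.0149). As for Tyrobp, aged control replicates 1 and 2 were far above replicate 3, which in turn was above the other 6 libraries. Cpa3, Prss34, Ms4a2 and Ccr3 rose with age as well. So did Prg2, but it was lowest among the aged controls in replicate 2, at 9.67 FPKM against 24.8 and 24.6 FPKM, while the eosinophil granule genes Epx and Ear6 stayed under 1 FPKM in all 9 libraries. Without aged control replicate 1 or 2 the count of 7 became 0 and 1, and it became 0 without any one young control. The count of 6 became 0 without aged control replicate 1 or 2, 0 and 1 without replicates 1 and 3 of the libraries labelled knockout, and 1 without any one young control.

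The summed basophil and eosinophil list was 5.03, 62.4 and 25.7 FPKM in the libraries labelled knockout, 3318, 3496 and 229.7 FPKM in aged controls and 7.86, 11.4 and 29.3 FPKM in young controls. These sums lay beside 4.36, 69.2 and 31.7 FPKM, then 1239, 1679 and 178 FPKM, and then 7.37, 11.4 and 22.2 FPKM for the 9 members other than Cd52 in the same order of libraries. Gata2, a transcription factor of blood progenitors that basophils and mast cells also use, was at 0.74, 1.47 and 2.83 FPKM in the libraries labelled knockout, at 151, 207 and 12.6 FPKM in aged controls and at 0.88, 0.90 and 0.97 FPKM in young controls. Gata2 entered the fit only through the aged controls, so its test is not given. The part of basophil RNA in the levels of the members was not tested.

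**Figure D4:**
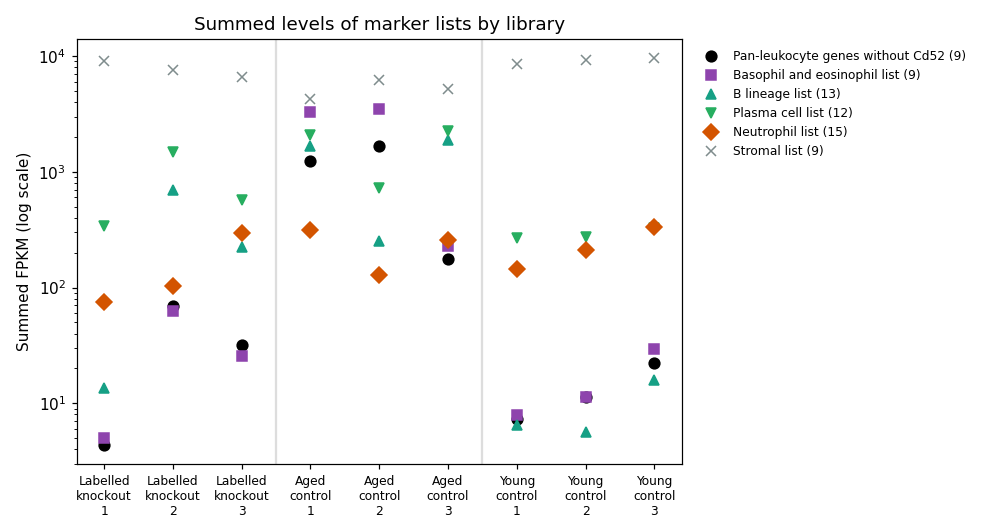
Summed FPKM on a log axis is shown for the 9 pan-leukocyte genes without Cd52 and for 5 marker lists in each library, with the number of genes in each list in the key. From high to low, the basophil and eosinophil sum orders the 9 libraries like the pan-leukocyte sum, save that places 5 and 6 are exchanged, while the neutrophil sum stays between 74.5 and 334.9 FPKM.

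Of 15 neutrophil markers 13 were tested and 3 passed as higher with age, where 2.57% of all tested genes did. They were Mpo, Ctsg and Cxcr2, and the list median was −0.13. These 3 entered the fit only through the aged controls, and 9 of the 13 would have passed the filter without them. The neutrophil granule genes S100a8 and S100a9 were at 10.8 to 23.0 and 10.5 to 24.1 FPKM in the libraries labelled knockout, at 6.15 to 78.5 and 7.97 to 84.96 FPKM in aged controls and at 46.4 to 116 and 36.96 to 125 FPKM in young controls. Aged control replicate 2, the highest library for 9 of the 10 members, was the lowest of all 9 for both. Of 14 monocyte and macrophage markers 6 were tested and 1, Ctss, rose, where 2.57% of all tested genes did. The complement genes C1qa and C1qb and the receptor Fcgr1 were under 1 FPKM throughout, and Adgre1 (F4/80) reached 2.46 FPKM. Ccr2, a chemokine receptor of monocytes, and Ms4a6c were not tested, but both were high in the first 2 aged controls. Ccr2 was at 0.03 FPKM at most in the libraries labelled knockout, at 8.09, 10.04 and 0.60 FPKM in aged controls and at 0.15 FPKM at most in young controls. Ms4a6c was at 0.18 FPKM at most in the libraries labelled knockout, at 7.97, 4.69 and 0.52 FPKM in aged controls and at 0.27 FPKM at most in young controls. Ctss and Ly6c2, the most abundant of the list, were ordered otherwise, at 163, 31.5 and 178 FPKM and at 578, 99.1 and 941 FPKM in aged controls. Ly6c2 was also at 788 FPKM in replicate 2 of the libraries labelled knockout. The tested markers Lyz2, Csf1r, Cd68 and Cd14 had log2 fold changes of −0.14, −0.26, −0.03 and −1.22 with age. Of 14 T and natural killer cell markers 12 were under 1 FPKM in every library, among them Cd3e, Cd4 and Cd8a. The other 2, Gzmb and Nkg7, encode granule proteins of cytotoxic cells and entered the fit only through the aged controls. Gzmb was at 0.13, 0.00 and 1.81 FPKM in the libraries labelled knockout, at 25.9, 46.5 and 1.77 FPKM in aged controls and at 0.00, 0.08 and 0.43 FPKM in young controls. Nkg7 was at 0.00, 0.00 and 0.10 FPKM in the libraries labelled knockout, at 14.2, 25.2 and 4.31 FPKM in aged controls and listed at 0 in young controls.

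All 6 tested B lineage markers, Cd79a, Cd79b, Ms4a1, Vpreb3, Fcrla and Cd74, were lowest among the aged controls in replicate 2. Pax5, Igll1, Cd22, Rag1 and Dntt were under 1 FPKM in all 9 libraries. The summed list was 13.6, 695 and 222 FPKM in the libraries labelled knockout, 1677, 253 and 1876 FPKM in aged controls and 6.47, 5.59 and 15.9 FPKM in young controls. Most of that sum was Cd74, at 1492, 216 and 1742 FPKM in aged controls. Aged control replicate 2 was also the lowest of its group for Cd52, unlike the other members. Of 8 erythroid and 2 osteoclast markers tested none passed in limma with age, and 1 of each had an unadjusted p under 0.05. Of 8 endothelial markers only Pecam1, which leukocytes also carry, was tested, and it entered the fit only through the aged controls. It was at 0.02, 0.42 and 0.37 FPKM in the libraries labelled knockout, at 9.34, 11.6 and 2.07 FPKM in aged controls and at 0.05, 0.09 and 0.07 FPKM in young controls, while Cdh5, the gene of VE-cadherin, was at 0.03, 1.99 and 0.11 FPKM in the libraries labelled knockout, 0.03 FPKM at most in aged controls and 0.08 FPKM at most in young controls.

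**Figure D5:**
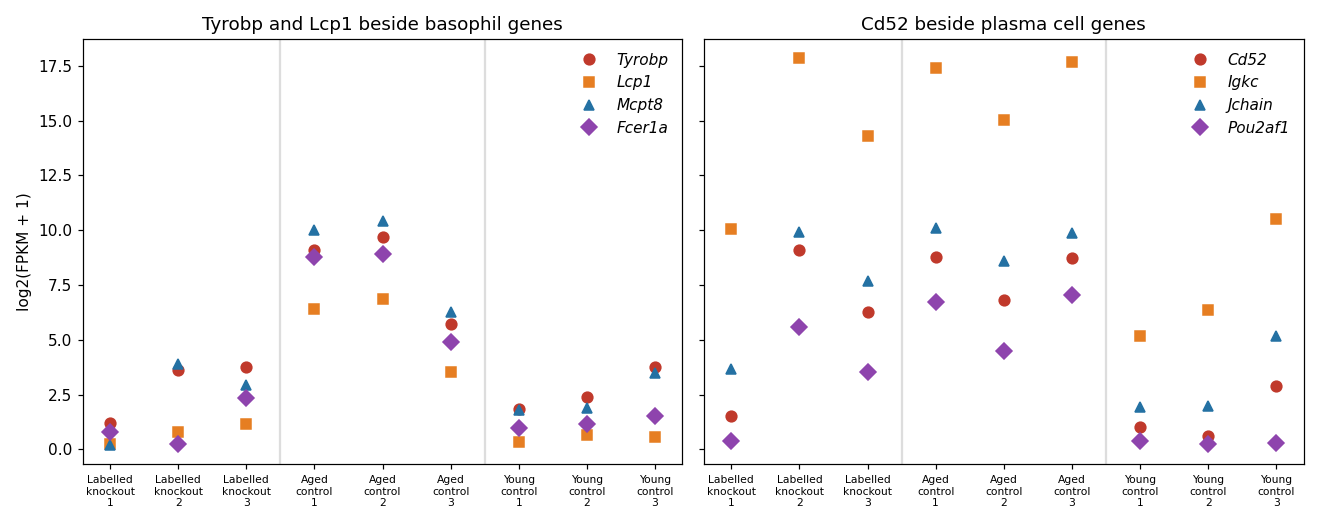
The left panel plots log2(FPKM + 1) of Tyrobp and Lcp1 beside the basophil genes Mcpt8 and Fcer1a, and the right panel that of Cd52 beside Igkc, Jchain and Pou2af1, for each of the 9 libraries. Aged control replicate 2 is highest for the 4 genes on the left and lowest of the aged controls for the 4 genes on the right.

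The genes whose profiles lay closest to the mean profile of the 10 members were sought among all tested genes, by the root mean square difference between log2(FPKM + 1) values centred on each gene's mean over the 9 libraries. The 8 closest were Selplg, Rasal3, Csf2rb, Alox15, Srgn, Bin2, Atp2a3 and Nlrp3, with differences of 0.12 to 0.48, where the closest 1% of tested genes lay within 0.88 and the median gene at 2.28. Selplg, which encodes the selectin ligand PSGL-1, was at 0.13, 3.79 and 1.47 FPKM in the libraries labelled knockout, at 46.2, 59.3 and 9.48 FPKM in aged controls and at 0.10, 0.30 and 0.59 FPKM in young controls. Srgn, which encodes serglycin, a proteoglycan of secretory granules, was the most abundant of the 8, at 16.1, 125 and 32.8 FPKM in the libraries labelled knockout, 627, 880.5 and 101 FPKM in aged controls and 21.2, 14.7 and 29.3 FPKM in young controls. Alox15, a lipoxygenase, was at 0.39, 5.37 and 2.33 FPKM in the libraries labelled knockout, at 75.1, 118 and 7.47 FPKM in aged controls and at 0.10, 0.55 and 0.58 FPKM in young controls. In all 8 genes the order within the aged controls was replicate 2, then 1, then 3, as in 9 of the 10 members. The 8 were chosen for closeness to the members over these same libraries, which favours a shared order, so nothing is read from it.

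Within the groups with low levels the members also shared an order. In young controls replicate 1 was the lowest for 9 of the 10 genes and replicate 3 the highest for 8. Replicate 1 of the libraries labelled knockout was the lowest of its group for 9 of the 10, Coro1a being the exception, and was below every young control for 7. Replicate 2 was above every young control for 8 genes and replicate 3 for 7. Among the libraries labelled knockout, replicate 1 was also lowest in the basophil and eosinophil sum and in the immunoglobulin share, at 5.03 FPKM in sum and 0.162% of reads.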

How the data were processed

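RNA sequencing of 9 libraries of sorted marrow stromal cells was analysed from 1 deposited table. The authors' values are FPKM per gene, rounded to 2 decimals, per the file headers and values. Libraries were made with SMART-Seq v4, per the labels' protocols, a kit that does not mark strand. FastQC 0.11.5, STAR, edgeR and the build GRCm38 (mm10) appear in the submitters' processing notes, with no roles stated. The annotation and the counting step are not given in sources used here. Since FPKM is relative to a library's total, a gene's value also depends on how much of that total the immunoglobulin genes take.

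Columns were matched to samples by title and groups taken from the genotype label. GENCODE M21 gave a model for 30192 of 30579 genes (98.7%). Low FPKM values rise in steps of 1 read, and the depth between 10 and 35 M reads (M being mega) that made most of them whole within 0.1 (97.7% to 100%) was used for depth, read numbers and immunoglobulin shares. A multiple of that depth outside this window was not tried. limma 3.58.1 (R 4.3.3) with an intensity trend was fitted to log2(FPKM + 1) of the 11988 genes with at least 1 FPKM in at least 3 libraries, all 9 libraries in 1 fit with 6 residual degrees of freedom, with Benjamini-Hochberg adjustment over all tested genes (threshold 0.05). Fold changes on this scale understate low genes. Values are means ± SD, and intervals are 95%. Where a sentence gives 2 adjusted p-values, the first compares libraries labelled knockout with aged controls and the second aged with young controls. The fit was tested on simulated data with known changes. In aged against young controls a log2 change of 1 was recovered for 24% of changed genes and a change of 5 for 100%. There 7.69% of calls were false, against a threshold of 0.05. For libraries labelled knockout a change of 1 was recovered for 26% against aged and 14% against young controls. In these comparisons 3.87% and 4.44% of calls were false. The fit was repeated on rescaled values (by median ratio, or without immunoglobulin genes), with the filter removed or raised to 5 FPKM, with 0.1 added in place of 1, on the 2 groups compared alone, with a replicate block, and leaving out each library in turn.

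The members and lists were chosen with earlier results of these data known. Named genes are the members, Thbs1, Igkc, up to 4 passing genes of smallest p per list and comparison, the most abundant relatives, the 8 closest profiles, and others chosen after their values were seen (S100a8, S100a9, Csf1r, Adgre1, Cdh5, Cybb, Cyba, Ccr3, Prg2, Cd300lb, Ccr2, Ms4a6c, Ly6c2, Lyz2, Cd68, Cd14, Gzmb, Cd74, B lineage genes, and genes under 1 FPKM). Promoters are from RefSeq, with 6 of 10 members matched. Python 3.11.15, numpy 2.4.6, pandas 2.3.3 and matplotlib 3.10.9 were used.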

Additional observations from a re-analysis of the deposited data

How the results depend on the processing

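The log2 fold changes of the 10 members kept their direction with age and in libraries labelled knockout against aged controls under all 16 alternatives that gave a value. That of Cd52 in libraries labelled knockout against aged controls ranged from −4.20 to −0.43. Ptprc had a value only with no filter. The counts of passing genes moved more. With no filter, aged against young controls gave 138 of all genes, 2 members, 12 other leukocyte genes and 0 basophil and eosinophil markers, and libraries labelled knockout against aged controls gave 92, 1, 5 and 0. With a minimum of 5 FPKM, 10 other leukocyte genes passed with age, and 199 of all genes and 6 other leukocyte genes passed in libraries labelled knockout against aged controls. A fit of only the 2 groups compared gave 2128 genes with age, against 14 genes, 0 members, 0 other leukocyte genes and 0 basophil and eosinophil markers in libraries labelled knockout against aged controls, and 1 gene against young controls. The cause of these changes was not tested. Leaving out each library in turn gave 4 to 2729 genes, 0 to 9 members, 1 to 31 other leukocyte genes and 0 to 7 basophil and eosinophil markers with age. It gave 13 to 1895, 0 to 8, 1 to 31 and 0 to 7 in libraries labelled knockout against aged controls, and 2 to 37 genes against young controls, where no member passed under any alternative. The alternatives for basophil and eosinophil markers were added after the data were seen.

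Replicate numbers did not pair the libraries, since same-numbered libraries correlated at −0.29 to 0.30 in their deviations from group means. With the replicate number as a block, 120 genes, 6 members, 16 other leukocyte genes and 0 basophil and eosinophil markers passed with age, and 64, 2, 5 and 0 in libraries labelled knockout against aged controls. Median-ratio rescaling moved the median gene with age to 0.00 and gave 358 genes higher and 68 lower (308 and 176 in the fit reported), and leaving out immunoglobulin genes gave 382 and 66. In libraries labelled knockout against aged controls these gave 178 higher and 352 lower, and 134 and 398, against 182 and 235 in the fit reported. Members passing under both were 8 with age, and 7 and 8 in libraries labelled knockout against aged controls.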
